A study of Mus musculus with 12 samples.

Results

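Transcripts of 8 genes of the insulin signalling cascade were measured in fasted mouse liver that carried or lacked SIRT4, a mitochondrial member of the sirtuin family. The 8 genes, Irs1, Irs2, Insr, Pik3r1, Akt1, Akt2, Foxo1 and Foxo3, were listed by symbol, and every probe set carrying a gene's Entrez number was taken, which gave 26 of 45037 probe sets and 8 of 17858 genes. The list was drawn up with the contrast between genotypes already in view, so the members' own differences between genotypes are given as values and carry no test. The animals were 6 SIRT4 WT and 6 SIRT4 KO littermates, all male, all of the 129SV strain and 7 to 8 months of age, and all were killed after a fast of 16 h without other treatment. Each liver was hybridised to its own Affymetrix Mouse Genome 430 2.0 array. The sources used here give neither the construction of the knockout allele nor the litters. Values are the deposited linear intensities, and differences are knockout minus wild type on the scale log2(intensity + 50), where the added 50 keeps dim probe sets from dominating and makes the fold change of a dim gene too small.

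Insulin binds the insulin receptor, whose kinase phosphorylates docking proteins of the IRS family. These recruit PI3 kinase through its regulatory subunit, the lipid it makes brings AKT kinases to the membrane, and AKT phosphorylates FOXO transcription factors so that they leave the nucleus. In the fasted liver insulin is low, FOXO factors are nuclear, and they are known to raise gluconeogenic genes and, as part of a feedback loop, genes of the cascade's own upper steps, with Irs2 the best described in liver.

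The promoters of both docking protein genes, which stand at the upper end of this loop, are shown first. Whether the letters marked in them act in it was not tested. The windows are from RefSeq (GRCm38.p6) and cover the 140 bases before the annotated start site. The arrays' files name no build. The window of Irs1 is chr1:82291440-82291579 and that of Irs2 is chr8:11008930-11009069, both on the minus strand, printed 5′ to 3′. Capitals mark an E-box, CACGTG, and the core of the insulin response element, TGTTTTG, each searched on both strands.
Irs1: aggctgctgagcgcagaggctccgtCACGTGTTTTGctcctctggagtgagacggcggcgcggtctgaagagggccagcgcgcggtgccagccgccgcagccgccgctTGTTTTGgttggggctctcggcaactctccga
Irs2: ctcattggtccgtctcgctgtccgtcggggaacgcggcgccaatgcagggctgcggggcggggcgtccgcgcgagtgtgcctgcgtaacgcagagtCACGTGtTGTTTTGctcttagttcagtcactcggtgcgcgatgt
In Irs1 the E-box and the core overlap, with the first base of the E-box at -115 from the start site, and a second core begins at -32. In Irs2 the E-box begins at -44 and the core at -37, with 1 base between them. Over the 250 bases before the start site, CACGTG was in 6.02% of 32851 promoter windows and TGTTTTG in 5.56%. An E-box overlapping such a core or lying within 10 bases of one was found in 9 windows of 9 genes (0.0274%), Irs1 and Irs2 among them. This pattern was picked after these sequences had been read, along with other motifs, so the share is a description. The full FOXO element GTAAACA, found in 3.17% of windows, was in neither; of the windows of the 7 members searched, which leave out Insr, only that of Akt1 holds it, as TGTTTAC beginning at -161. TGACGTCA, the cAMP response element, and TGTTCT, a hexamer bound by the glucocorticoid receptor, are in 1.55% and 16.1% of windows and in none of these members' windows.

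The arrays were brought to a common level before deposit, with medians of 36.6 to 38.7, and array pairs correlated at 0.988 to 0.994. Sirt4 was lower in the knockout, with intensities of 153 to 187 in the wild type and 81.0 to 121 in the knockout (log2 fold change -0.53, SE 0.071, limma adjusted p = 0.0352), and it was the only gene past an adjusted p of 0.05, a call lost in several alternatives, such as an offset of 16 (0 genes). Its transcript was still detected, and the sources used here do not say whether its probes lie in the deleted part. The titles carry numbers that start with 72 (2 wild type, 5 knockout) or 75 (4 wild type, 1 knockout), whose meaning the labels do not state. Of the markers of the tissue, all 7 hepatocyte genes were well measured, with summed intensities of 100391 to 105283 in the wild type and 99510 to 106265 in the knockout. The 12 Kupffer cell and macrophage markers summed to 4044 to 7680 in the wild type and 3408 to 5948 in the knockout, 0 of 12 had a log2 fold change above 0, and 11 had an unadjusted p under 0.05. The 9 acute phase genes summed to 39055 to 83259 and 41520 to 66295, with the 2 highest sums in wild type replicates 5 and 6. Of these genes 0 of 9 had a log2 fold change above 0, the median was -0.61, and none had an unadjusted p under 0.05. The 6 measured neutrophil markers, 0 of them above 0, summed to 319 to 1057 in the wild type and 311 to 436 in the knockout. Of them 1 had an unadjusted p under 0.05. The 5 B and T cell markers summed to 223 to 481 and 153 to 228, but 3 of the 5 lay below the array median. Their median log2 fold change was -0.04, and 2 had an unadjusted p under 0.05. Over all genes 50.4% had a log2 fold change above 0. An unadjusted limma p under 0.05 was met by 3.14% of genes higher and 3.12% lower in the knockout. In whole liver, fewer cells of a type and less RNA per cell cannot be told apart. P-values measure the spread between animals.

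Irs1 was the member whose genotypes stood apart. Irs1, on chromosome 1 (82233105 to 82291439), encodes a docking protein that couples the insulin receptor to PI3 kinase, and it has 1 probe set (1423104_at). The intensities in the wild type were 614, 629, 638, 709, 754 and 763. In the knockout they were 775, 800, 820, 831, 834 and 922. The groups did not overlap, though the highest wild type and the lowest knockout animal were close, and knockout replicate 1 lay above the other knockout animals. The means were 685 ± 66.0 and 830 ± 49.96 (SD, n = 6 each), and the log2 fold change was 0.26 (SE 0.062). Of all 17858 genes, 28 (0.157%) had every knockout animal above every wild type animal and 17 (0.0952%) the reverse. Of the members Irs1 was the only gene so separated, a count that the choice of members has used.

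**Figure D1:**
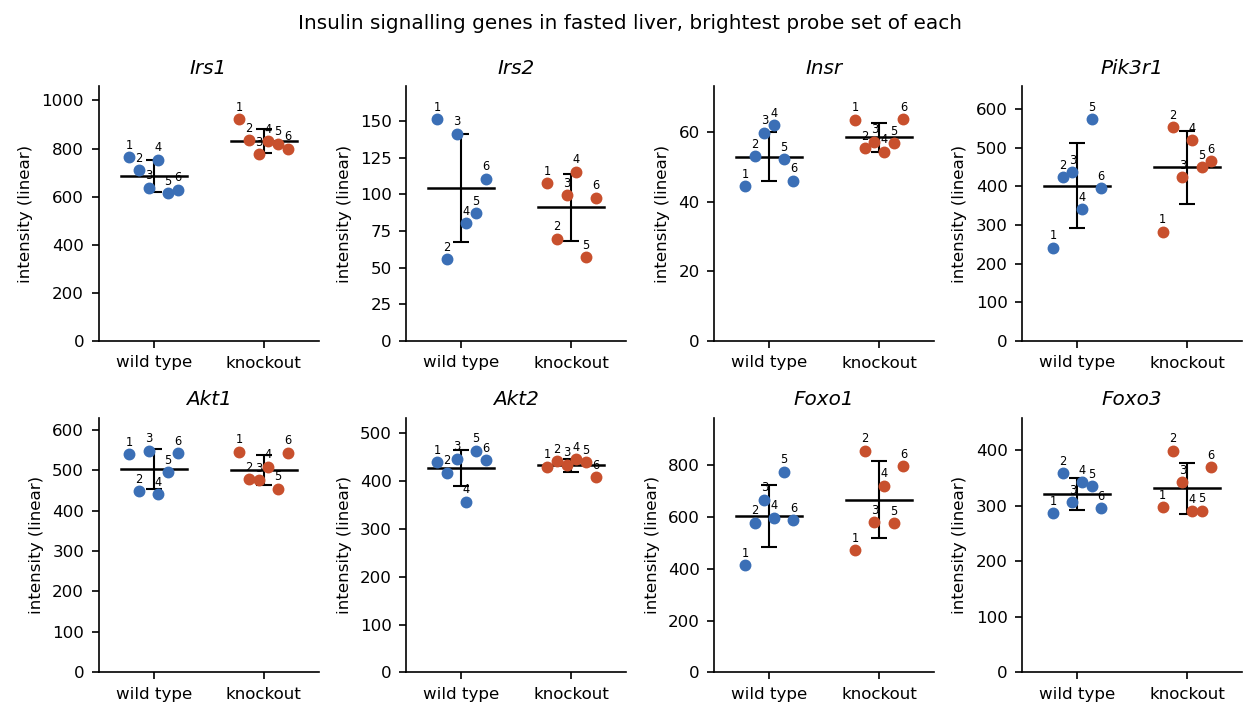
Deposited intensity (linear) of the brightest probe set of each of the 8 genes in each animal, with replicate numbers, by genotype. Lines are means and bars SD (n = 6). The groups are separate for Irs1 (614 to 763 against 775 to 922) and overlap for the other 7 genes, and animals spread most for Irs2, Pik3r1 and Foxo1.

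The difference in Irs1 was smaller within the animals whose numbers start with 72. There the wild type mean was 736 (n = 2) and the knockout mean 837 (n = 5), a log2 fold change of 0.17. Among numbers starting with 75 the wild type mean was 659 (n = 4) and the single knockout animal read 800. With the number series as a term of the fit the value was 0.21, and leaving out wild type replicates 5 and 6, the animals of the 2 highest acute phase sums and of the 2 lowest Irs1 values, gave 0.20. The part of the number series and of the acute phase genes in the difference was not tested.

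Irs2, the second docking protein of hepatocytes and the one best known to rise in fasting, showed no such separation. Its probe set 1443969_at (chromosome 8, 10984681 to 11008929) read 55.7 to 151 in the wild type, with a median of 98.9, and 57.1 to 115 in the knockout, with a median of 98.7. The medians were nearly equal, every knockout animal lay within the range of the wild type, and wild type replicates 1 and 3 lay above all knockout animals. The means were 104 ± 36.97 and 91.2 ± 22.8 (SD, n = 6 each), with a log2 fold change of -0.11 (SE 0.15). Single animals set this value: it was -0.03 without wild type replicate 1, -0.04 without wild type replicate 3, -0.03 without knockout replicate 5, -0.07 without knockout replicate 2 and -0.21 without wild type replicate 2. Its coefficient of variation among wild type animals, 35.4%, compares with 9.64% for Irs1. The Irs2 probe set was far dimmer, with a wild type mean of 104 against 685. How much of its spread is measurement was not tested.

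Insr encodes the insulin receptor and lies on chromosome 8 (3150922 to 3279649). The brighter of its 2 probe sets, 1421380_at, read 44.4 to 61.9 in the wild type (median 52.5) and 54.3 to 63.6 in the knockout (median 57.0). Wild type replicates 1 and 6 lay below every other animal, and the remaining animals overlapped. The log2 fold change was 0.08 (SE 0.052), and 0.11 (SE 0.067) on the second probe set, 1450225_at, whose mean lay under the array median and which did not follow the first between animals (r = 0.0743 over 12 animals). Both probe sets of the receptor lay near the array median, where a fold change on this scale is understated.

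Pik3r1, on chromosome 13 (101680761 to 101768217), encodes the p85alpha regulatory subunit of PI3 kinase and its shorter isoforms. Its brightest probe set, 1425514_at, read 241 to 573 in the wild type (median 409) and 282 to 552 in the knockout (median 458). The groups overlapped, and the lowest animal of each genotype was its replicate 1. The means were 402 ± 110 and 449 ± 94.1 (SD, n = 6 each), and the log2 fold change was 0.16 (SE 0.16). It was 0.04 without wild type replicate 1, 0.10 without knockout replicate 2, 0.26 without wild type replicate 5 and 0.27 without knockout replicate 1. The other 3 probe sets above the array median gave 0.11 to 0.19 and followed the brightest between animals (r of 0.879 to 0.914). The dimmest, 1444591_at, with means of 36.7 and 33.0, gave -0.06 (SE 0.057).

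Akt1 and Akt2 encode the serine-threonine kinases that carry the signal on from PI3 kinase, Akt2 being the main isoform in insulin's control of liver metabolism. Akt1 (1416657_at, chromosome 12) read 441 to 548 in the wild type (median 517) and 454 to 546 in the knockout (median 492.9), a log2 fold change of -0.0026 (SE 0.065). Akt2 (1424480_s_at, chromosome 7) read 357 to 463 (median 441) and 408 to 445 (median 436), a log2 fold change of 0.02 (SE 0.056). Both genes overlapped throughout, and Akt2 had the tightest knockout group of the 8 genes, with a coefficient of variation of 3.07%. The other probe sets lay between -0.07 and 0.04 for Akt1 and at -0.02 and 0.03 for Akt2, and for both genes the sign depended on the setting. The suffix _s marks probe sets that by the maker's naming can match transcripts of more than 1 gene.

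Foxo1, on chromosome 3 (52268337 to 52350109), encodes the FOXO factor best known for driving hepatic gluconeogenesis. Its brightest probe set, 1416983_s_at, read 416 to 776 in the wild type (median 594) and 473 to 857 in the knockout (median 652). The groups overlapped, replicate 1 was again the lowest animal of each genotype, and knockout replicates 2 and 6 were the highest. The means were 604 ± 119 and 668 ± 148 (SD, n = 6 each), with a log2 fold change of 0.13 (SE 0.14). It was 0.03 without wild type replicate 1, 0.06 and 0.08 without knockout replicate 2 or 6, 0.20 without wild type replicate 5 and 0.21 without knockout replicate 1. Probe sets 1416981_at and 1416982_at gave 0.09 and 0.10 and followed the first between animals (r = 0.954 and 0.943). The fourth, 1459170_at, near the array median, gave 0.03 and did not follow (r = 0.0880). Within the animals numbered 72 the log2 fold change of the brightest probe set was 0.33 for Foxo1 and 0.39 for Pik3r1, where the wild type is 2 animals and 1 of them is replicate 1.

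Foxo3, a second FOXO factor of liver, lies on chromosome 10 (42181845 to 42276695) and has 6 probe sets, 4 of them below the array median. The brightest, 1434831_a_at, read 287 to 359 in the wild type (median 321) and 290 to 399 in the knockout (median 319). The medians were alike, and knockout replicates 2 and 6 were the highest animals, as for Foxo1. The log2 fold change was 0.04 (SE 0.077), and the other 5 probe sets gave 0.0041 to 0.07.

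Counted over all 26 probe sets, 20 had a log2 fold change above 0 and 6 below. Over all genes, each at its brightest probe set, 50.4% were above 0, a share that is not over probe sets. Many of the 26 probe sets measure the same transcript in the same animals, so the count of 20 and 6 is not over independent values. By the brightest probe set 6 of 8 genes were above 0, the median was 0.06 against 0.0008 over all genes, and 0 of 8 passed an adjusted p of 0.05 (background 0% higher and 0.0056% lower). At an unadjusted p under 0.05 the count was 1 of 8, Irs1, beside 3.14% of genes higher and 3.12% lower. Over the 26 probe sets it was also 1, beside 2.98% of all probe sets higher and 2.9% lower. Nothing is read from these counts, since the members were chosen on this contrast.

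**Figure D2:**
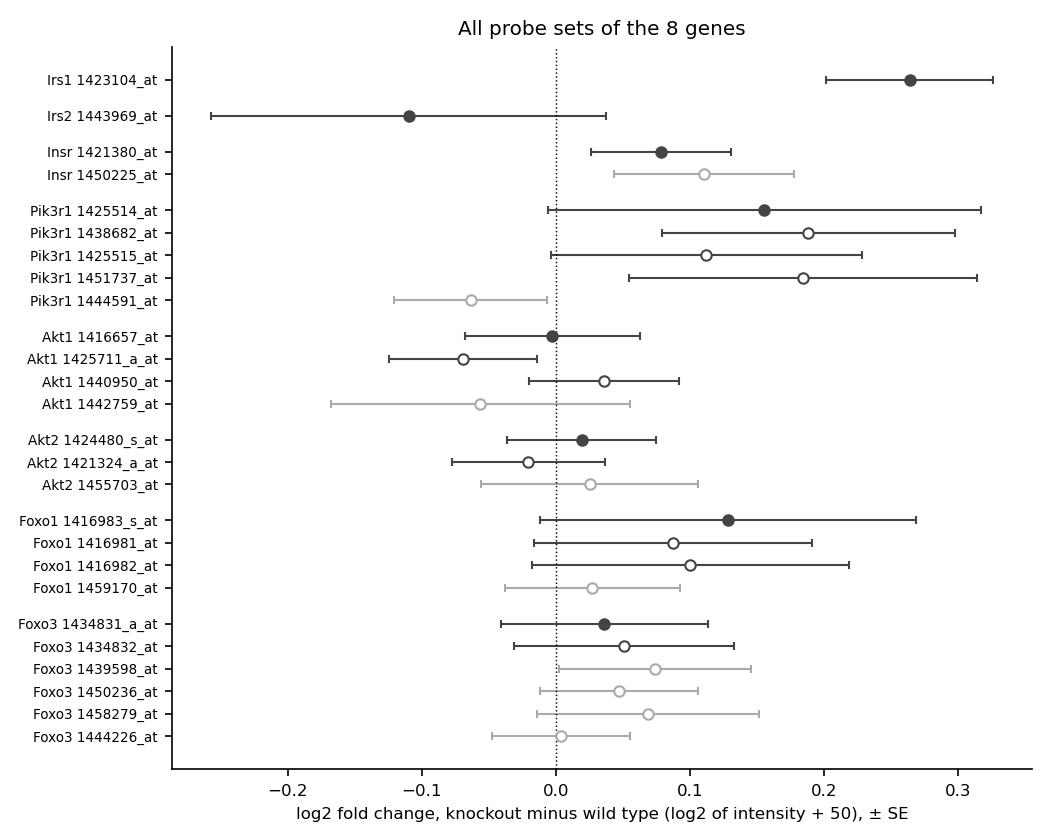
Log2 fold change (knockout minus wild type, log2 of intensity + 50) with SE for all 26 probe sets, by gene. Filled points are each gene's brightest probe set, open points the others, and grey marks probe sets with a mean intensity under 50. Irs1 lies at 0.26, the bright probe sets of Foxo1 and Pik3r1 between 0.09 and 0.19, and those of Akt1 and Akt2 around 0.

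The members also differed from animal to animal within a genotype, a spread that the list was not drawn from. Unless called centred, the correlations below pool the 2 genotypes and so include the difference between them. Foxo1 and Pik3r1 moved together: animals with more of the transcription factor's mRNA had more of the PI3 kinase subunit's. Over 12 animals Pearson's r was 0.910 (permutation p = 4e-05, adjusted over 28 pairs 0.00112) and Spearman's rho 0.790 (permutation p = 0.00358, adjusted 0.100), so the rank correlation did not pass the adjusted threshold. Centred on each genotype's mean, r was 0.904 (permutation p adjusted 0.00672). The relation leaned on its ends: without wild type replicate 1 and knockout replicate 1, the animals farthest from the median of Pik3r1, r was 0.777 and the adjusted permutation p 0.119. Without the animals farthest on Foxo1 (knockout replicate 2 and wild type replicate 1) r was 0.832. Among the 7 animals numbered 72 r was 0.944 (exact permutation p adjusted 0.100), and no r is given for the 5 numbered 75, fewer than the 6 animals taken as the minimum for a correlation. Any of the 3 bright Foxo1 probe sets against any of the 4 bright Pik3r1 probe sets gave r between 0.739 and 0.916 in these 12 combinations, over the same animals.

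Irs2 and Akt1 made up the other pair of the 28 that passed with the genotypes pooled. Their r was 0.817 (permutation p = 0.00134, adjusted 0.0188) and rho 0.734 (adjusted 0.118). Without the 2 animals farthest on Irs2 r was 0.713, and centred on genotype it was 0.830 with an adjusted permutation p of 0.0511, past the threshold no longer. On the other bright probe sets of Akt1 the r with Irs2 was 0.478 and 0.229, so the relation was seen on 1 of 3 probe sets for Akt1. Irs1 went the other way from Pik3r1 and Foxo1 within genotypes, with centred r of -0.751 (adjusted permutation p 0.0836) and -0.612 (0.237). Neither passed, and with the 2 genotypes pooled as they were, r was -0.236 and -0.165. These values rested largely on replicate 1 of each genotype: without both animals the centred r was -0.457 and -0.200, and the pooled r was 0.112 and 0.168. Foxo1 and Foxo3 had an r of 0.614 (adjusted permutation p 0.317).

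**Figure D3:**
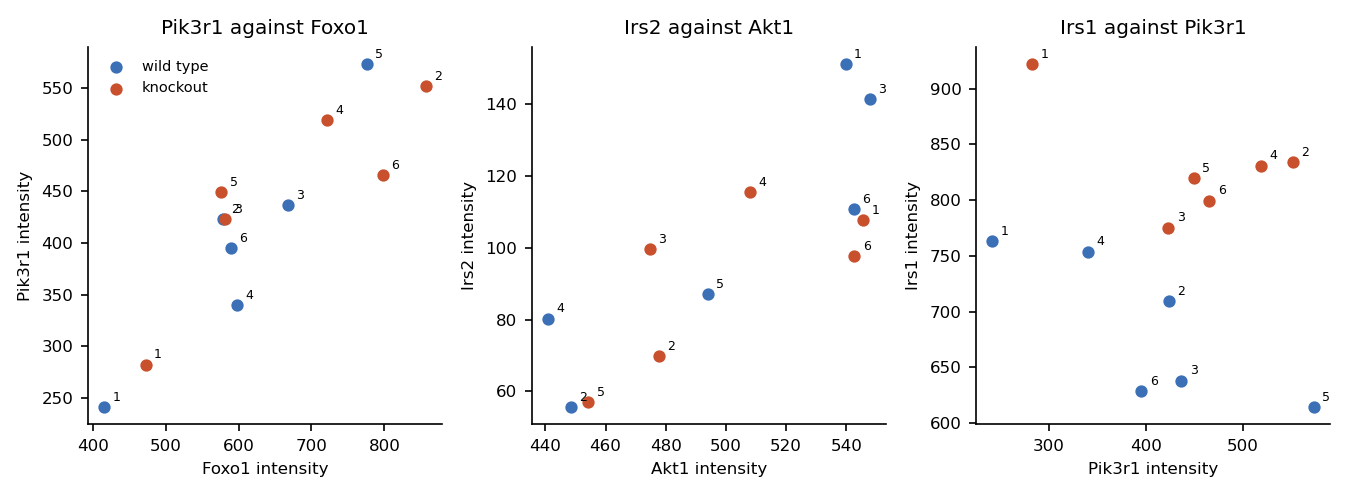
Intensity (linear) of pairs of members, 1 point per animal with its replicate number, coloured by genotype. Pik3r1 rises with Foxo1 (r = 0.910) from replicate 1 of each genotype at the low end, Irs2 follows Akt1 (r = 0.817), and Irs1 falls with Pik3r1 in the wild type while the knockout animals sit above them. The axes do not start at 0.

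The genes most like each of 3 members were sought by r over the 12 animals after centring each genotype, among 8142 genes with a mean intensity of at least 100. For Foxo1 they were Susd6 (r = 0.965), Slc38a2 (0.963), a sodium-coupled neutral amino acid transporter, and Klf13 (0.959), a zinc finger factor. Pik3r1 stood at place 26 of 8141 for Foxo1, and Foxo1 at place 16 for Pik3r1. For Irs1 the first were Arhgap24 (0.869), Zfpm1 (0.854) and Ccn1 (0.834), a secreted matrix protein. For Irs2 they were Zyg11b (0.926), Actr3 (0.903) and Fbxo11 (0.893), with Akt1 at place 30. High values were common over these 12 arrays: 9.51% of genes had an r over 0.5 with Foxo1, 11.5% with Irs2 and 5.92% with Irs1.

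Foxo1 and Pik3r1 followed the second principal component of the arrays, which held 18.1% of the variance (r = -0.891 and -0.897), and so moved with much else. The r values with components and with array medians are over the 12 animals without centring. They therefore include any difference between genotypes. The first component, with 23.5% of the variance, had an r of -0.788 with Insr and -0.610 with Irs1. Its r with the other members lay between -0.417 and 0.462. The median intensity of the array had an r of -0.665 with Foxo3 and -0.472 with Irs1. A list of 15 glucocorticoid-responsive liver genes was drawn up after these values had been seen and is therefore given with no test. Of the 15, 10 had a centred r over 0.5 with Foxo1 and 11 with Pik3r1, and 9 had an r under -0.5 with Irs1, beside 9.51%, 9.42% and 6.38% of genes. Without wild type replicate 1 and knockout replicate 1 the counts were 9, 10 and 3, beside 14.9%, 12.4% and 9.66% of genes. Fkbp5, a cochaperone of the glucocorticoid receptor, had an r of 0.945 with Foxo1, 0.922 with Pik3r1 and -0.796 with Irs1, and without those 2 animals 0.871, 0.817 and -0.594. Fkbp5 read 191 and 273 in replicate 1 of wild type and knockout, and 894 and 974 at the top, in wild type replicate 5 and knockout replicate 2. Lpin1, a phosphatidate phosphatase of fasting, had 0.901, 0.924 and -0.744, and Tat, a glucocorticoid-induced aminotransferase, 0.854, 0.893 and -0.648. Without wild type replicate 1 and knockout replicate 1, Lpin1 had 0.866, 0.795 and -0.475, and Tat 0.673, 0.736 and -0.278. Not all of the list went this way: Sgk1 had -0.185 with Foxo1, and G6pc, glucose-6-phosphatase, had -0.813 with Foxo1 and -0.752 with Pik3r1. Of 12 core clock and clock output genes, also listed after the values were seen, 3 had an r over 0.5 with Foxo1 and 1 under -0.5. The background is 9.51% and 6.68% of genes. Among them were Per2 (0.840) and Arntl (-0.801), and the median was 0.17. Arntl was highest in replicate 1 of each genotype (187 in wild type, 134 in knockout). For the clock genes and the markers below, r without those animals is not given. The summed stellate cell markers had a centred r of -0.656 with Foxo1 and -0.755 with Pik3r1, the hepatocyte markers 0.543 and 0.567, the cholangiocyte markers -0.494 and -0.690, the adipocyte markers, 4 of 5 of them below the array median, 0.522 and 0.624, the sinusoidal endothelial markers -0.494 and -0.504, and the Kupffer cell markers 0.149 and 0.238. With Irs2 and Akt1 the pancreas markers had -0.707 and -0.762, the cholangiocyte markers 0.575 and 0.579 and the Kupffer cell markers 0.333 and 0.604. With Akt2 the Kupffer cell markers had 0.698. For Irs1 the centred r was -0.60 with the adipocyte markers and -0.496 with the acute phase genes. It was -0.451 with the neutrophil and -0.405 with the Kupffer cell markers, and 0.495 with the cholangiocyte and 0.464 with the stellate cell markers. The part of these markers, and that of the hour of sampling, which the labels do not give, was not tested.

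**Figure D4:**
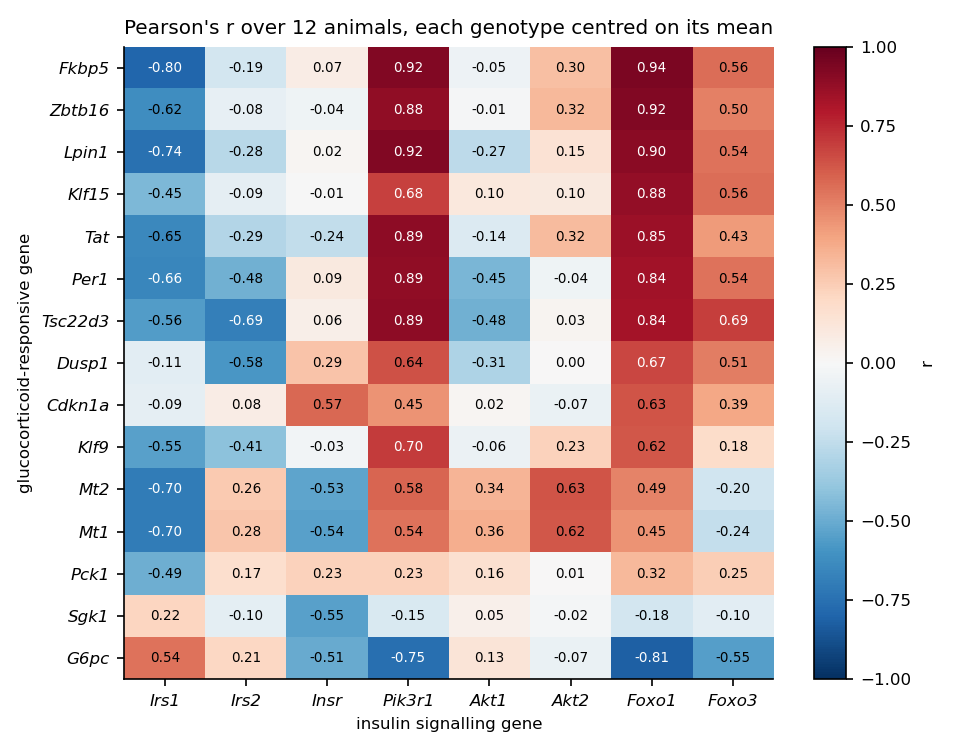
Pearson's r over 12 animals, each genotype centred on its mean, between 15 glucocorticoid-responsive genes (rows) and the 8 insulin signalling genes (columns), with each r printed. The list was chosen after the values were seen. Foxo1 and Pik3r1 show the same high values for Fkbp5, Zbtb16, Lpin1, Tat, Per1 and Tsc22d3, where Irs1 is negative, while Akt1 stays between -0.48 and 0.36. Without wild type replicate 1 and knockout replicate 1, not shown here, Irs1 ran from -0.594 (Fkbp5) to 0.003 (Tsc22d3) for these genes.

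The rest of the cascade was counted over lists by step. Of 158 listed genes besides the members, 155 were measured, and none passed an adjusted p of 0.05 in limma, the lowest being 0.752. At an unadjusted p under 0.05 there were 5 higher and 4 lower in the knockout, where the background of 3.14% and 3.12% applies, and 93 of 155 had a log2 fold change above 0, with a median of 0.02. No step stood out by its median, which ran from -0.02 for PI3 kinases and phosphatases to 0.06 for AKT substrates and mTORC1.

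At the receptor, 1 of 16 genes had an unadjusted p under 0.05, Enpp1, an ectoenzyme that inhibits the receptor in some settings, at 0.17 (SE 0.064). Ptpn1, the phosphatase that switches the receptor off, was at -0.08. Among 13 docking proteins and adaptors there were 3: Sh2b1 at 0.16 (SE 0.058), Shc1 at -0.23 (SE 0.10) and the dim Sh2b2 at -0.16 (SE 0.073). Of 16 PI3 kinase and phosphatase genes only Inpp4b did, at -0.16 with means of 24.8 and 16.8, below the array median, while Pik3c2g was at -0.16 and Pik3cb at 0.07. None of 20 genes at the AKT step did, where Hsp90aa1, the chaperone of AKT, was at 0.18, Mtor at 0.11 and Trib3, an AKT-binding pseudokinase, at -0.23.

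Among 18 AKT substrates and mTORC1 genes, Gsk3b, the kinase that restrains glycogen synthase, was at 0.14 (SE 0.050) and its paralog Gsk3a at 0.13 (SE 0.060). Rps6 was at 0.17, but its probe set read only 11.7 and 19.6 on average for a ribosomal protein gene. Of 22 FOXO partners and regulators 1 had an unadjusted p under 0.05, Ywhag, one of the 14-3-3 proteins that hold FOXO in the cytoplasm, at 0.16 (SE 0.062). Hdac3 was at -0.14 and Kat2b at 0.10.

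The targets of FOXO did not separate the genotypes. Of 23 measured, 13 had a log2 fold change above 0, the median was 0.03, and none had an unadjusted p under 0.05. G6pc read 1673 to 3127 in the wild type (median 2174) and 2053 to 2756 in the knockout (median 2334), a log2 fold change of 0.10 (SE 0.12). Pck1, which makes phosphoenolpyruvate for gluconeogenesis, read 8581 to 9760 and 8453 to 9179, at -0.03 (SE 0.047). Igfbp1, an insulin-repressed binding protein of insulin-like growth factors, ranged from 1577 to 3387 and from 465 to 3242, with a log2 fold change of -0.45 (SE 0.34). These 3 genes overlapped between genotypes, and the widest spread was that of Igfbp1 in the knockout. Ppargc1a, a coactivator of gluconeogenic genes, was at -0.10 (SE 0.14) and Pdk4, which spares glucose, at 0.07 (SE 0.15). Gadd45a was at -0.20, Sod2 at 0.08 and Pnpla2 at -0.12. Between animals, 3 of the 23 had a centred r over 0.5 with Foxo1 and 2 under -0.5, beside 9.51% and 6.68% of genes. Klf15, Tat, Pck1 and G6pc are also on the glucocorticoid list, so the counts of these lists share genes. Their centred r with Foxo1 was 0.875, 0.854, 0.323 and -0.813.

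Of 13 measured genes that insulin raises in liver, 1 had an unadjusted p under 0.05. Egr1, an immediate early factor, read 204 to 458 in the wild type (median 355) and 96.7 to 287 in the knockout (median 198), a log2 fold change of -0.69 (SE 0.19, limma adjusted p = 0.752). The genotypes overlapped, and knockout replicate 5 was the lowest animal. Elovl6 was at 0.23 (SE 0.12). On the side of glucagon and CREB none of 16 genes had an unadjusted p under 0.05. The genes named for the smallest unadjusted p were Tfeb at 0.15, Prkacb at 0.07 and Sik1 at -0.09.

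**Figure D5:**
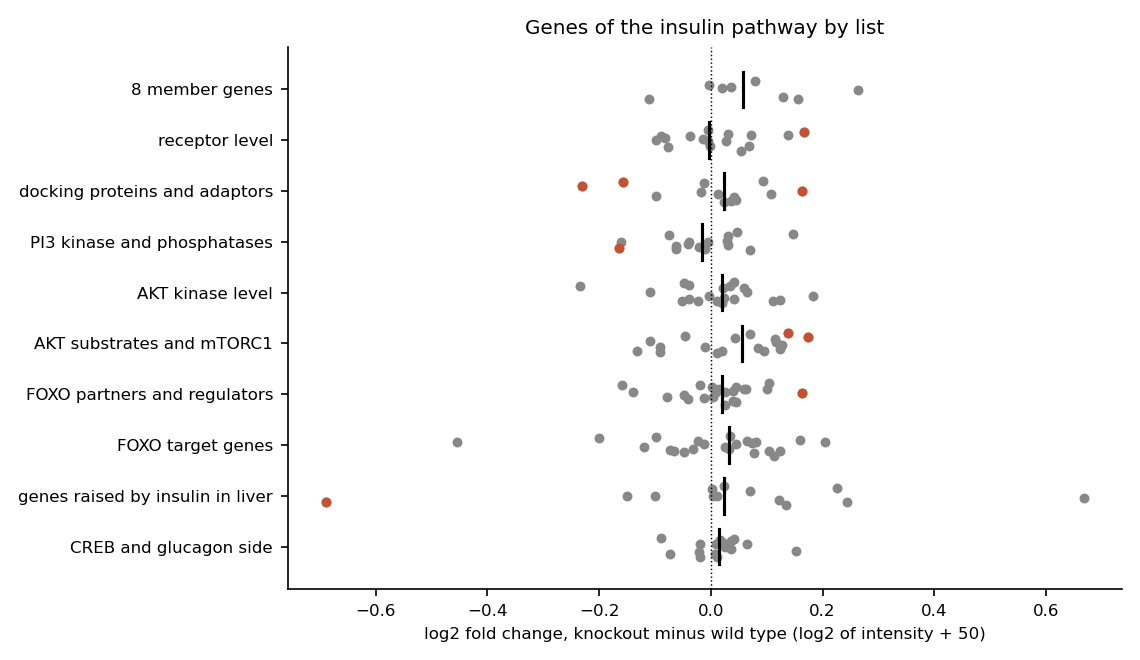
Log2 fold change (knockout minus wild type, log2 of intensity + 50) of every measured gene of each pathway list and of the 8 members, 1 point per gene at its brightest probe set. Vertical bars are medians and red points have an unadjusted limma p under 0.05 among the listed genes. List medians lie between -0.02 and 0.06, and Egr1 is farthest left at -0.69.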

How the data were processed

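Liver RNA of 12 animals was measured on 1 array each. The deposited intensity values were scaled by the authors and are linear. The submitters' processing notes name RMA, without a version, yet 689 values are 0. The authors' deposited fold-change table holds the same intensities and was used for its gene numbers. Its unadjusted p-values, and the signed fold changes and t statistic held here as scores, were computed by the authors, per the file headers, and were not used. A probe set was named where its own gene number was a single RefSeq gene (GRCm38.p6), as for 36239 of 45037. A further 1261 had several genes and 7537 none, and 3 listed pathway genes were not named to 1 gene here.

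The test was limma 3.58.1 (R 4.3.3; lmFit and eBayes, no trend) on log2(intensity + 50), two-sided, with Benjamini-Hochberg adjustment, on the brightest probe set of each of 17858 genes, and beside it on all probe sets. It was tested on simulated data. Correlations used 100000 permutations (Python 3.11.15, scipy 1.17.1, numpy 2.4.6), within genotype for centred values, adjusted over 28 pairs. No depth exists for arrays, and their number limits the precision. Members, lists and tests were chosen with earlier results of these data known. Named were all member probe sets, Sirt4, the 3 genes of smallest unadjusted p in each list, 5 FOXO targets, and the 3 genes most alike to Irs1, Irs2 and Foxo1. Certain genes taken by this rule are not reported here. The glucocorticoid and clock genes, the markers' sums and correlations, the members' other likenesses and the promoter motifs were added after values were seen. Replicate numbers follow record order and pair no animals. Alternatives were the offset, scaling, a filter on dim probe sets, the variance model, the title number series, and leaving out animals.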

Additional observations from a re-analysis of the deposited data

Results flagged for a closer look

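Of 118 groups of 6 animals tested for an animal far from the rest (the gap to its neighbour above 0.625 of the group's range), 5 had one, and chance gives about 1 in 20. Among the members, Akt1 on its probe set 1440950_at read 144.34 in wild type replicate 6 against 106.37 to 119.71 in the other wild type animals. Among the pathway genes, Sh2b1 read 201.45 in wild type replicate 4 against 229.26 to 238.87. Inpp4b read 38.27 in wild type replicate 4 against 18.2 to 24.99, and 4.5 in knockout replicate 1 against 16.38 to 21.16. Tfeb read 138.62 in knockout replicate 5 against 95.39 to 107.47 in the other knockout animals.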

How the results depend on the processing

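The 1 gene past an adjusted p of 0.05 (Sirt4) became 0 with an offset of 16, a floor of 10, the title number series as a term, only animals numbered 72, or without wild type replicates 5 and 6. Leaving out each animal in turn gave 0 to 1 genes lower, with 1 only without wild type replicate 6, knockout replicate 4 or knockout replicate 6. Over all probe sets it gave 0 to 1 higher, with 1 without wild type replicate 1. Probe sets lower went from 0 to 1 with quantile normalization and to 1 without the 3 knockout arrays whose number carries a suffix. Genes with an unadjusted p under 0.05 were 560 higher and 557 lower, 679 and 442 with arrays centred on their median, and 444 and 278 with the filter on dim probe sets. None of the 155 pathway genes passed the adjusted threshold under the alternatives run, and their unadjusted counts are too small to rank. The 2 correlated pairs became 1 with genotypes centred and 1 without wild type replicates 5 and 6. They became 0 within the animals numbered 72 and 0 without wild type replicate 1 and knockout replicate 1, both chosen after seeing the data. Over 25 alternatives the log2 fold change of Irs1 ran from 0.17 to 0.29, Irs2 from -0.28 to -0.03, Insr from 0.04 to 0.15, Pik3r1 from 0.04 to 0.39 and Foxo1 from 0.03 to 0.33, none with a change of sign. Akt1 changed sign in 9, Akt2 in 3 and Foxo3 in 1. No paired analysis was possible because the replicate numbers follow record order and the labels give no litters. The cause of these shifts was not tested.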
